A study of Mus musculus with 6 samples.

Results

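The genes described here are 46 genes of the TGF-beta and BMP signalling pathway, measured in whole mouse hearts at embryonic day 13.5. They were taken from the count table by gene symbol, and each symbol matched 1 of the 45792 genes listed. By role they are 5 TGF-beta and activin ligands, 5 BMP ligands, 6 type I receptors, 4 type II receptors, 2 co-receptors or pseudoreceptors, 8 Smads, 2 Smad ubiquitin ligases, 6 secreted antagonists and modulators, 4 latent TGF-beta binding proteins and 4 Id target genes. Of these, 45 had enough counts to be tested, among 17125 genes tested in all, and only Grem1 did not. The hearts fell into 2 groups of 3. Control hearts carry the label wild-type, and mutant hearts carry the label Tie2Cre INO80 flox/flox, a floxed Ino80 with a Cre driven by the Tie2 promoter. All 6 hearts are labelled as strain C57BL/6, although the study's methods describe mixed backgrounds. The study elsewhere counts every genotype other than Tie2Cre;Ino80 fl/fl as a control, without saying whether this holds for the sequenced hearts. Sex was not genotyped. Ino80 encodes the ATPase of a chromatin remodelling complex, and Tie2Cre acts in endothelial and endocardial cells and in blood lineages, not in cardiomyocytes. A whole heart therefore mixes recombined with unrecombined cells, and for every gene below fewer cells of a type and less RNA per cell cannot be told apart.

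Ligands of this family are secreted dimers that bring together a type II and a type I receptor kinase. The type II receptor phosphorylates the type I receptor, which phosphorylates receptor-regulated Smads, and these enter the nucleus with the common Smad, Smad4. BMP ligands act mainly through Smad1, Smad5 and Smad9, and TGF-beta and activin ligands mainly through Smad2 and Smad3. Secreted antagonists hold ligands away from their receptors, latent TGF-beta binding proteins store TGF-beta in the matrix, and the inhibitory Smads, Smad6 and Smad7, are themselves targets of the pathway. In the embryonic heart BMP and TGF-beta signals act in the endocardial cushions, where endocardial cells become mesenchyme, in trabeculation and compaction of the ventricular wall, and in the epicardium, which gives rise to fibroblasts and vascular smooth muscle.

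The libraries held between 28948836 and 89675692 counts, and every pair differed by more than counting noise, so each heart was counted as 1 replicate. Ino80 stood at 30.2, 31.6 and 32.7 CPM (TMM-scaled counts per M counts) in control hearts 1 to 3 and at 36.5, 33.7 and 31.8 CPM in mutant hearts 1 to 3. The ranges overlapped, with a log2 fold change of 0.11 (SE 0.08) and an edgeR adjusted p of 0.47, so whole-heart counts did not show the deletion. They could not test it, because the floxed allele removes only part of the gene and whole hearts hold unrecombined cells. By quantitative PCR the paper found no detectable Ino80 mRNA in endothelial cells isolated from other mutant hearts. The groups are called control-labelled and mutant-labelled hearts. The summed levels of markers of cardiomyocytes (from 23175 to 28614 CPM), pan-endothelial cells (from 898 to 1115 CPM) and endocardium (from 907 to 1211 CPM) were present in every heart, in ranges that overlapped between the groups. These sums are led by a few abundant genes. The largest part of the endocardial sum was Tbx20, which the paper uses as a compact myocardium marker and which is also on the cushion list. It stood at 597, 562 and 523 CPM in control-labelled and at 570, 542 and 459 CPM in mutant-labelled hearts. The overlap of the endocardial sums therefore does not describe the other endocardial markers. Of the other cell types, summed coronary capillary markers lay between 748 and 979 CPM in control-labelled and between 545 and 595 CPM in mutant-labelled hearts, and summed epicardial markers between 212 and 234 CPM and between 248 and 280 CPM. Markers of erythroid cells reached 18611 CPM in control 3, against 3787 to 8245 CPM in the other hearts.

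No member passed the adjusted threshold of edgeR, and more members had a higher than a lower level in mutant-labelled hearts. Bmp4, Bmp7, Acvr2b, Bmpr1b, Smad6, Ltbp1, Nog and Fst, the 8 genes that passed the threshold of DESeq2, are ligands, receptors, an inhibitory Smad and extracellular binding proteins. The log2 fold change, mutant-labelled over control-labelled throughout, was above 0 in 29 of the 45 tested members (64.4%) and in 49.7% of all tested genes. Its median was 0.10 over the members and -0.0017 over all tested genes. The quasi-likelihood test of edgeR with Benjamini-Hochberg adjustment called 0 members and 0 genes of the whole table in either direction at an adjusted p under 0.05, a share of 0.0% each way. At an unadjusted p under 0.05, 14 members (31.1%) were higher, against 9.48% of all tested genes, and 2 (4.44%) were lower, against 9.98%. DESeq2, a second tool, called 8 members higher at an adjusted p under 0.05 (17.8%), against 2.67% of the genes it tested, and 0 lower, against 3.43%. In 14 members (31.1%) each mutant-labelled heart was above each control-labelled heart, as in 14.3% of all tested genes, and in 3 members (6.67%) each was below, as in 12.8%. The p-values measure only the spread between these hearts, since the labels do not say which litters they came from.

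**Figure D1:**
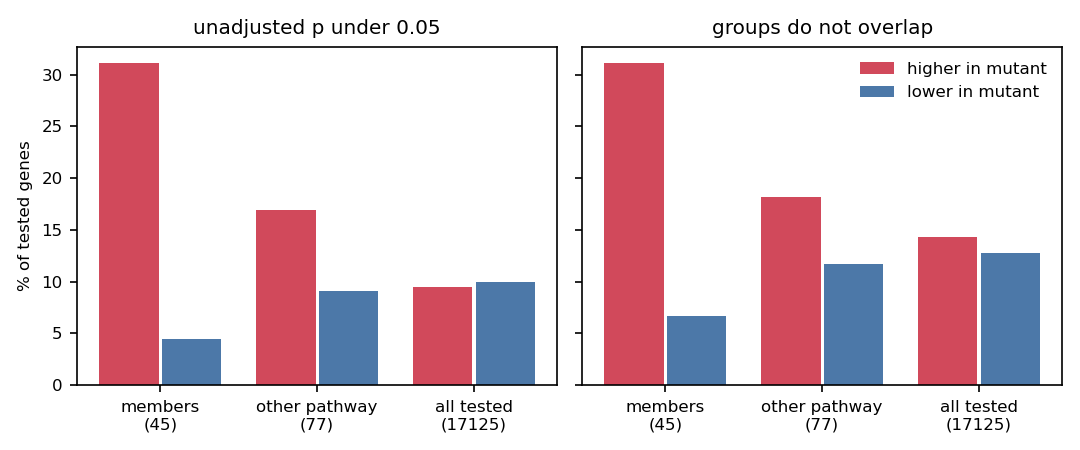
Share of tested genes, in percent, that were higher (red) or lower (blue) in mutant-labelled hearts, for the 45 tested members, 77 other tested genes of the pathway and all 17125 tested genes, by an unadjusted p under 0.05 (left) and by groups that do not overlap (right). The members' bar for higher genes stands at 31.1% in both panels, against 9.48% and 14.3% of all tested genes.

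These counts depended on single hearts. The number of members higher at an unadjusted p under 0.05, 14 with all hearts, was 10 without mutant 1 or without mutant 2, 12 without mutant 3, 11 without control 2 or control 3 and 17 without control 1. The count of lower members, 2 with all hearts, was 0 without control 3 or mutant 2, 1 without mutant 3 and 3 without control 1 or control 2. The share of all tested genes at an unadjusted p under 0.05 was not counted in these fits. Whether the members' share at that p exceeded the share of other genes in these fits is therefore not known. Control 1 was the control closest to the mean of the mutant-labelled hearts in 26 of the 45 tested members (57.8%) and in 43.4% of all tested genes. The same held for 11 of the 14 members counted as higher. These 14 were picked for higher mutant-labelled values, and no share was counted over all genes picked in that way. Without control 1, edgeR called 8 members higher at an adjusted p under 0.05, against 1.85% of all tested genes, and 0 lower, against 2.49%. Those 8 were Tgfb2, Bmp4, Bmpr1b, Acvr2b, Smad6, Fst, Bmper and Ltbp1, and 6 of them were among the 8 called by DESeq2 with all hearts. Leaving out any other single heart gave 0 members in either direction at that edgeR threshold. Markers of several cell types differed in the same contrast, none with an edgeR adjusted p under 0.05, as held for every tested gene. All 10 of 10 coronary capillary markers were lower, 7 of them at an unadjusted p under 0.05, and 7 of 10 epicardial markers were higher, 4 of them at an unadjusted p under 0.05, while Upk1b (-0.28) was lower by the same measure and Wt1 had a log2 fold change of 0.00. Of 9 endocardial markers 7 were higher, but only 1 (11.1%) at an unadjusted p under 0.05, against 9.48% of all tested genes. Their median log2 fold change was 0.29, above the members' 0.10. Hapln1, at 1.25, and Tmem108, at 0.40, did not overlap between the groups. Of 10 cushion and valve mesenchyme markers 4 were higher, Twist1 (0.96) among them, and 2 lower, Postn (-0.43) and Prrx1 (-0.52), at an unadjusted p under 0.05. Of 10 smooth muscle markers 1 was higher and 4 lower in the same way, and Rgs5, a pericyte gene, was at 44.2, 99.95 and 101 CPM against 12.8, 11.0 and 16.1 CPM. DESeq2, at an adjusted p under 0.05, called 6 coronary capillary markers lower and 2 epicardial markers higher. Of cushion markers it called 3 higher and 2 lower, of smooth muscle markers 1 higher and 3 lower, and of endocardial markers 0. Its shares over all genes were 2.67% higher and 3.43% lower. The DESeq2 adjusted p of Rgs5 (3.2e-08) and Cd36 (1.3e-07) lay under that of every member, the lowest being Fst at 0.00018. No marker of these lists was at 0 in any heart. Their part in the members' differences was not tested.

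**Figure D2:**
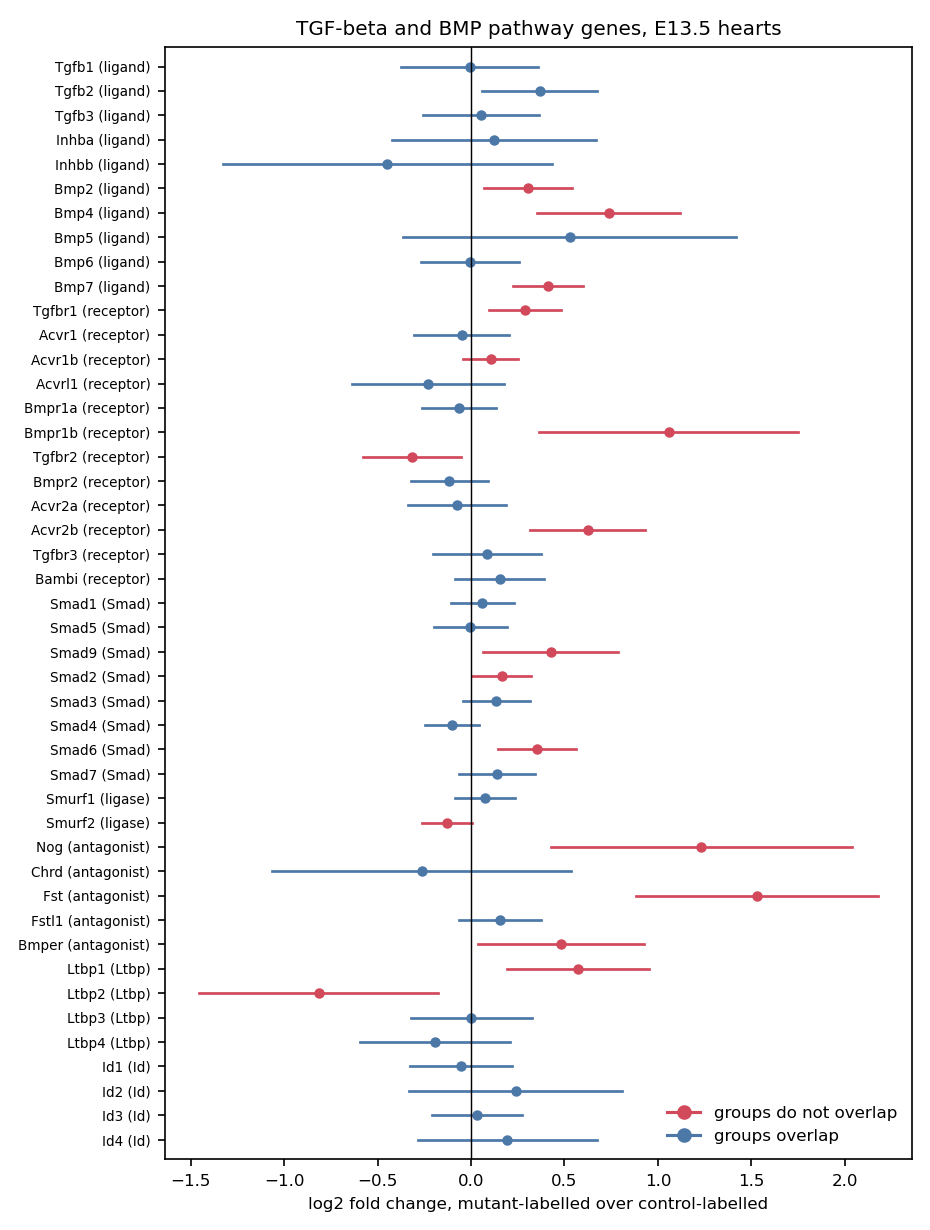
Log2 fold change of each of the 45 tested members (points) with its 95% interval (lines), by role. Members whose groups do not overlap are red and the others blue. Fst, at 1.53, and Ltbp2, at -0.82, mark the extremes.

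The members differed in level by more than their differences between groups. Per kb of exon, which allows levels of genes of different length to be compared, the control-labelled mean was highest for Fstl1, a secreted follistatin-like glycoprotein, at 191 ± 17.0 CPM per kb (SD, n = 3). Id3 followed at 43.7 ± 5.73 CPM per kb, Bmp7 at 33.1 ± 2.10 and the type I receptor Bmpr1a at 31.3 ± 1.85 CPM per kb. Bmp7 and Bmpr1a did not differ beyond their spread in control-labelled hearts, whereas in mutant-labelled hearts Bmp7 stood at 44.0 ± 3.09 CPM per kb and Bmpr1a at 29.9 ± 2.45 CPM per kb. Bmp7 was thus the most abundant of the 10 ligands per kb, above Tgfb2 at 9.95 and Tgfb1 at 6.74 CPM per kb in control-labelled hearts. The scarcest tested members were the antagonist Chrd at 0.138, the receptor Bmpr1b at 0.187, Fst at 0.226 and Nog at 0.365 CPM per kb. Several of the largest fold changes were those of scarce genes.

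**Figure D3:**
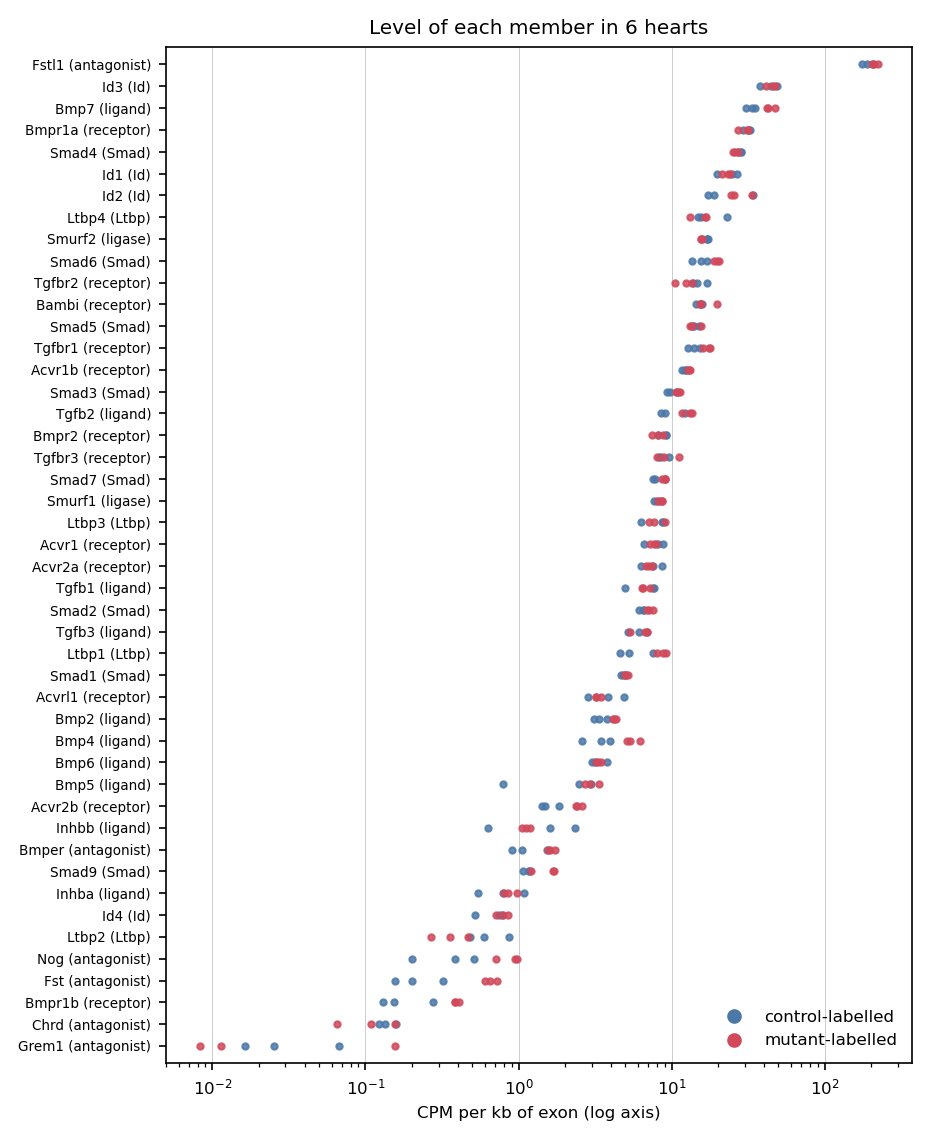
Level of each of the 46 members in each heart, in CPM per kb of exon on a log axis, ordered by the control-labelled mean (blue, control-labelled; red, mutant-labelled). Fstl1 tops the order at a control-labelled mean of 191 CPM per kb, and Grem1 ends it at 0.0362 CPM per kb.

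Of the 5 BMP ligands, Bmp2, Bmp4 and Bmp7 stood at higher CPM in every mutant-labelled heart than in any control, and Bmp5 and Bmp6 overlapped. The median log2 fold change of the 5 was 0.41. Bmp4 (chromosome 14, 46383520 to 46390669, minus strand, GRCm38) encodes a ligand of cushion and outflow tract formation. It stood at 8.91, 5.82 and 7.81 CPM in control-labelled hearts 1 to 3, against 12.02, 14.1 and 11.5 CPM in mutant-labelled hearts 1 to 3. Its means were 7.51 ± 1.56 and 12.5 ± 1.36 CPM (SD, n = 3). This gave a log2 fold change of 0.74 (SE 0.17), with an adjusted p of 0.097 by edgeR and of 0.0033 by DESeq2. Bmp7 (chromosome 2, 172868012 to 172940321, minus strand) encodes a ligand broadly made in heart muscle and epithelia. It was at 135, 140.4 and 124 CPM among control-labelled hearts, against 171, 168 and 191 CPM in mutant-labelled hearts. The difference, 133 ± 8.43 against 177 ± 12.4 CPM, was a log2 fold change of 0.41 (SE 0.08), with an adjusted p of 0.083 by edgeR and of 0.0015 by DESeq2. The 2 groups were separated by more than the spread within either. Bmp2 (chromosome 2, 133552159 to 133562885, plus strand), the myocardial signal to cushion endocardium, was measured at 13.5, 11.1 and 12.01 CPM in control-labelled and at 15.4, 14.8 and 15.01 CPM in mutant-labelled hearts. The mutant-labelled hearts lay close together above all controls, at 15.1 ± 0.273 against 12.2 ± 1.20 CPM, with a log2 fold change of 0.30 (SE 0.10) and an edgeR adjusted p of 0.18. Bmp6, a close relative of Bmp7, had a log2 fold change of -0.00 with a 95% interval from -0.27 to 0.26. Bmp5 had a log2 fold change of 0.53 (SE 0.39), and 46.7% of its exon bases are shared with a gene on the opposite strand, whose reads cannot be told apart without strand.

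**Figure D4:**
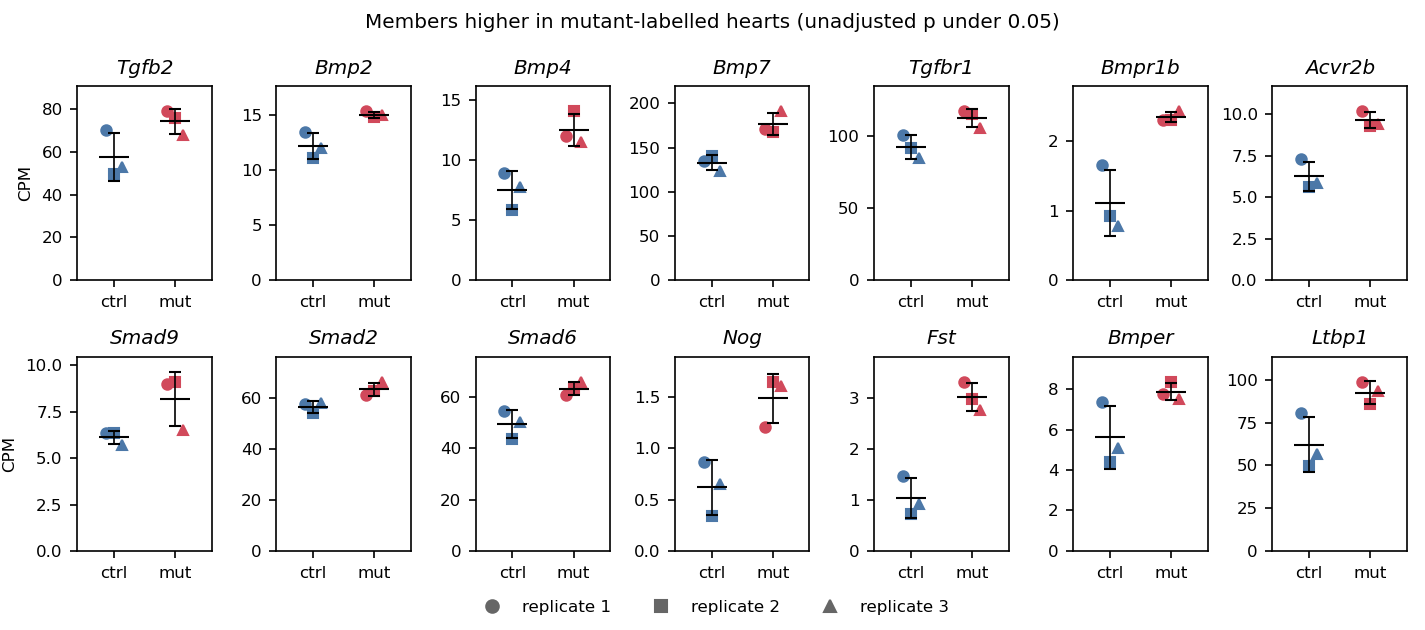
CPM in each heart of the 14 members that were higher at an unadjusted p under 0.05 (blue, control-labelled; red, mutant-labelled; marker shape gives the replicate number, horizontal lines the mean and bars the SD, n = 3; all axes start at 0). In 13 of the 14 panels the groups do not overlap, and in the panel of Tgfb2 control 1, at 70.5 CPM, lies above mutant 3, at 67.9 CPM.

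The TGF-beta and activin ligands had a median log2 fold change of 0.05, and 1 of the 5, Tgfb2, was higher at an unadjusted p under 0.05. Tgfb2 (chromosome 1, 186622792 to 186705989, minus strand) is the TGF-beta ligand of the cushion and outflow tract. It stood at 70.5, 49.6 and 52.9 CPM among control-labelled hearts, against 79.0, 76.0 and 67.9 CPM in mutant-labelled hearts. The groups overlapped through control 1, at 57.6 ± 11.2 against 74.3 ± 5.75 CPM, with a log2 fold change of 0.37 (SE 0.13) and adjusted p of 0.20 by edgeR and of 0.12 by DESeq2. With single hearts left out the log2 fold change ranged from 0.27 to 0.54. The highest value was that without control 1, with an edgeR adjusted p of 0.028. Tgfb1, the founding member, had a log2 fold change of -0.01 (95% interval -0.37 to 0.36), and Tgfb3 had 0.05 (95% interval -0.26 to 0.36). The activin subunit genes Inhba and Inhbb had log2 fold changes of 0.12 and -0.45, and their groups overlapped.

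Among the latent TGF-beta binding proteins, which anchor latent TGF-beta in the matrix or build elastic fibres, Ltbp1 and Ltbp2 stood on opposite sides. Ltbp1 (chromosome 17, 75005568 to 75392512, plus strand) binds latent TGF-beta. It was at 80.5, 49.3 and 56.6 CPM among control-labelled hearts, against 98.6, 85.5 and 93.4 CPM in mutant-labelled hearts. All mutant-labelled hearts were above the controls, with means of 92.5 ± 6.59 and 62.2 ± 16.3 CPM, and control 1 was the nearest of the 3. The log2 fold change was 0.57 (SE 0.17), with an adjusted p of 0.14 by edgeR and of 0.017 by DESeq2. With single hearts left out it ranged from 0.43 to 0.81, the highest without control 1, with an edgeR adjusted p of 0.011. Ltbp2 (chromosome 12, 84783212 to 84876532, minus strand) does not bind latent TGF-beta and acts in microfibrils. Its level was 4.86, 3.91 and 7.07 CPM in control-labelled and 3.84, 2.19 and 2.91 CPM in mutant-labelled hearts. The groups did not overlap, but control 2 and mutant 1 almost met. Ltbp2 had a log2 fold change of -0.82 (SE 0.28), with an adjusted p of 0.18 by edgeR and of 0.060 by DESeq2, and 9.34% of its exon bases are shared with an opposite-strand gene. Ltbp4, the most abundant of the 4 per kb, was measured at 95.9, 100.3 and 149.7 CPM and at 109, 85.8 and 108 CPM, so its groups overlapped. Ltbp3 had a log2 fold change of 0.00 (95% interval -0.32 to 0.32).

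Receptors were evenly divided, 6 of the 12 genes being higher and 6 lower, around a median log2 fold change of 0.02. The scarce BMP and activin receptors Acvr2b and Bmpr1b were higher, and the abundant Bmpr1a and Bmpr2 overlapped between the groups. Level did not divide these receptors. Acvr1b, with a control-labelled mean of 53.5 CPM, was higher without overlap, and the scarcer Acvrl1, at 16.5 CPM, overlapped. Acvr2b (chromosome 9, 119402118 to 119434995, plus strand) encodes an activin type II receptor that also serves in left-right patterning. It stood at 7.28, 5.62 and 5.86 CPM among control-labelled hearts, against 10.2, 9.31 and 9.43 CPM in mutant-labelled hearts. The gap between the groups was wider than the range within either, and the log2 fold change was 0.62 (SE 0.13), with an adjusted p of 0.091 by edgeR and of 0.0061 by DESeq2. Bmpr1b (chromosome 3, 141837136 to 142169425, minus strand), a type I BMP receptor best known from cartilage, was scarce. Its counts were 63, 27 and 25 in control-labelled and 213, 98 and 71 in mutant-labelled hearts, or 1.66, 0.919 and 0.772 CPM and 2.30, 2.30 and 2.43 CPM. The mutant-labelled hearts were close together above all controls, with a log2 fold change of 1.06 (SE 0.30), an adjusted p of 0.14 by edgeR and 0.036 by DESeq2. With single hearts left out it ranged from 0.85 to 1.47, the highest without control 1, with an edgeR adjusted p of 0.023.

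The type I and type II receptors of TGF-beta itself differed in direction. Tgfbr1 (chromosome 4, 47353222 to 47414931, plus strand) was at 101, 91.6 and 84.4 CPM among control-labelled hearts, against 117, 115 and 105 CPM in mutant-labelled hearts. The groups did not overlap, and the log2 fold change was 0.29 (SE 0.08), with an adjusted p of 0.14 by edgeR and of 0.078 by DESeq2. Tgfbr2 (chromosome 9, 116084293 to 116175360, minus strand) was at 113, 119.7 and 141 CPM in control-labelled and at 111, 86.7 and 102 CPM in mutant-labelled hearts. Mutant 1 lay just under control 1, and the means were 124 ± 14.4 and 99.9 ± 12.3 CPM. For Tgfbr2 the log2 fold change was -0.32 (SE 0.11), with an edgeR adjusted p of 0.19, so neither of these receptors passed the threshold. Acvr1b, the activin type I receptor, was at 54.6, 51.6 and 54.3 CPM and at 56.7, 58.4 and 57.5 CPM, which did not overlap, but its log2 fold change was 0.10 with an edgeR adjusted p of 0.39. Bmpr1a, the most abundant receptor and the main type I BMP receptor of heart muscle, stood at 204, 207 and 185 CPM and at 198, 200.1 and 172 CPM, with a log2 fold change of -0.06 (95% interval -0.26 to 0.14). Acvrl1, the type I receptor for BMP9 and BMP10 on endothelium, had a log2 fold change of -0.23 (95% interval -0.63 to 0.18). The remaining receptors and co-receptors, Acvr1, Bmpr2, Acvr2a, Tgfbr3 and Bambi, overlapped between the groups, with log2 fold changes from -0.12 to 0.15.

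Of the 8 Smads, Smad6, Smad9 and Smad2 were higher in each mutant-labelled heart than in any control, and the median log2 fold change of all 8 was 0.14. Smad6 (chromosome 9, 63953076 to 64022059, minus strand), the inhibitory Smad that acts mainly on BMP signals and in endocardial cushions, stood at 54.4, 43.8 and 50.2 CPM among control-labelled hearts, against 60.7, 63.2 and 65.8 CPM in mutant-labelled hearts. Its means were 49.5 ± 5.33 and 63.2 ± 2.53 CPM, and the lowest mutant-labelled heart was above the highest control. The log2 fold change was 0.35 (SE 0.09), with an adjusted p of 0.12 by edgeR and of 0.030 by DESeq2. Smad9 (chromosome 3, 54755582 to 54801257, plus strand), the scarcest BMP-regulated Smad, was at 6.33, 6.33 and 5.71 CPM and at 8.99, 9.10 and 6.49 CPM. Mutant 3 was close to the controls, and the log2 fold change was 0.43 (SE 0.16) with an edgeR adjusted p of 0.20. Smad2 was at 57.3, 53.8 and 57.9 CPM and at 60.9, 62.5 and 66.0 CPM, a log2 fold change of 0.16 (SE 0.07) with an edgeR adjusted p of 0.25. Smad5, the most counted Smad, was at 112, 100.3 and 104 CPM and at 116, 101 and 97.6 CPM, which overlapped, and its log2 fold change was -0.00 (95% interval -0.20 to 0.19). The common Smad, Smad4, had a log2 fold change of -0.10 (95% interval -0.25 to 0.04), and the other inhibitory Smad, Smad7, 0.14 (95% interval -0.07 to 0.34). Smurf2, a ubiquitin ligase that marks Smads and receptors for degradation, was at 105, 107 and 104 CPM and at 96.2, 97.7 and 95.5 CPM. The Smurf2 groups did not overlap, with a log2 fold change of -0.13 (SE 0.06) and an edgeR adjusted p of 0.27, whereas its relative Smurf1 overlapped at 0.08.

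Start sites of the members were read from RefSeq (GRCm38.p6) as windows from 250 bases before to 50 bases after the start. A window was found for 34 of the 46 members, 42 windows in all. They were searched on both strands for GGCGCC, a GC-rich Smad site, and for GTCTAGAC, the palindromic Smad box, 2 motifs that do not overlap each other and are their own reverse complements. GGCGCC was in 14 of the members' 42 windows (33.3%) and in 11.9% of all 32851 windows, but the median GC content was 66.5% in the members' windows and 52.7% in all. Among the 14 members counted as higher, 9 had a window, and 2 of these held GGCGCC, against 10 of the 25 other members with a window. GTCTAGAC was in 1 window of the members, that of Smad6, and in 0.213% of all windows, and there it runs from 4 bases before to 4 bases after the start. The windows of Smad6 (chr9:64022010-64022309, minus strand), Smad9 (chr3:54755332-54755631, plus strand) and Tgfbr1 (chr4:47352972-47353271, plus strand) are shown 5′ to 3′, because they are the higher members with a match, and the capitals mark the motif. A match describes the letters only, and binding was not measured.
Smad6: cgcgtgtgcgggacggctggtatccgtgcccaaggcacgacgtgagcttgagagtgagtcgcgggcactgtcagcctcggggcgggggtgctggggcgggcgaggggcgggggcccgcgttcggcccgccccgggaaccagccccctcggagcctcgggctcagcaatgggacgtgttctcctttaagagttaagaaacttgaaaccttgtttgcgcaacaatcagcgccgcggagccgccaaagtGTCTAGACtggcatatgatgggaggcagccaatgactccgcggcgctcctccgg
Smad9: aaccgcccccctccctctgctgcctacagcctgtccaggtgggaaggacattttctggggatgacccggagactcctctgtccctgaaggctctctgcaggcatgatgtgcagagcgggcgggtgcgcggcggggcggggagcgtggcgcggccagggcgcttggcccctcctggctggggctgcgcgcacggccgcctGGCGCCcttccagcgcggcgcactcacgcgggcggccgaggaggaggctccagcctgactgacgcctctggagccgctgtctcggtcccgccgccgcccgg
Tgfbr1: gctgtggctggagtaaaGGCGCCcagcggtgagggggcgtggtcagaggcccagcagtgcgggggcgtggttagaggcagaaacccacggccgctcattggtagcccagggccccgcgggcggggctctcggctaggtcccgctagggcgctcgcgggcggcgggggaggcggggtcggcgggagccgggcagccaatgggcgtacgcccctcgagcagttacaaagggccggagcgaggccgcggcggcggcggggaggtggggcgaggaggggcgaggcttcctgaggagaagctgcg

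Of the secreted antagonists and modulators, Fst, Nog and Bmper were higher in every mutant-labelled heart, and the median log2 fold change of the 5 tested was 0.48. Fst (chromosome 13, 114452290 to 114458951, minus strand) encodes follistatin, which binds activin. It had counts of 56, 21 and 30 in control-labelled hearts and of 306, 127 and 81 in mutant-labelled hearts. On the CPM scale these were 1.47, 0.715 and 0.926 against 3.31, 2.99 and 2.77, so that the groups were far apart relative to their spread. The means were 1.04 ± 0.390 CPM in control-labelled and 3.02 ± 0.272 CPM in mutant-labelled hearts, a fitted fold change of 2.89. At 1.53 (SE 0.28), the log2 fold change of Fst was the largest of all tested members, with an adjusted p of 0.081 by edgeR and of 0.00018 by DESeq2. Nog (chromosome 11, 89300638 to 89302332, minus strand) encodes noggin, which binds BMP ligands. Its counts were 33, 10 and 21 in control-labelled and 112, 70 and 47 in mutant-labelled hearts, or 0.867, 0.340 and 0.648 CPM and 1.21, 1.65 and 1.61 CPM. No control reached the lowest mutant-labelled heart, and the log2 fold change was 1.23 (SE 0.35), with an adjusted p of 0.14 by edgeR and of 0.049 by DESeq2. Bmper, an extracellular BMP modulator of endothelial cells, was at 7.38, 4.39 and 5.09 CPM and at 7.75, 8.34 and 7.52 CPM. Control 1 was near the mutant-labelled hearts, and the log2 fold change was 0.48 (SE 0.19) with an edgeR adjusted p of 0.23. With single hearts left out it ranged from 0.34 to 0.73, the highest without control 1, with an edgeR adjusted p of 0.040. Fstl1, the most abundant member, was at 1025, 858 and 936 CPM and at 1002, 1100.0 and 1033 CPM, which overlapped, with a log2 fold change of 0.15 (95% interval -0.07 to 0.37). Chrd, encoding the BMP antagonist chordin, had -0.27 (SE 0.35).

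The Id genes encode inhibitors of basic helix-loop-helix factors and are common readouts of BMP signalling. All 4 overlapped between the groups, 0 had an unadjusted p under 0.05 in edgeR, and DESeq2 called 0. Id3, the most abundant per kb, was at 79.6, 67.4 and 87.8 CPM among control-labelled hearts, against 73.9, 84.4 and 82.2 CPM in mutant-labelled hearts. The log2 fold change of Id3 was 0.03 (95% interval -0.21 to 0.27). Id1 had -0.05 (95% interval -0.33 to 0.22), Id2 0.24 (95% interval -0.33 to 0.81) and Id4 0.19 (95% interval -0.29 to 0.67). The intervals of Id1 and Id3 were narrower than those of Id2 and Id4.

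Other genes of the pathway, from a list of 93 symbols that covers further ligands, receptors, antagonists, activators of latent TGF-beta, intracellular regulators and targets, gave 77 tested genes. At an unadjusted p under 0.05, 13 of them (16.9%) were higher, against 9.48% of all tested genes, and 7 (9.09%) were lower, against 9.98%, and their median log2 fold change was 0.02. No gene passed in edgeR, and DESeq2 called 4 higher and 4 lower of the 75 it tested, against 2.67% and 3.43% of all genes. The ligand gene Gdf6 was at 4.12, 1.77 and 2.78 CPM in control-labelled and at 7.30, 7.47 and 6.46 CPM in mutant-labelled hearts, a log2 fold change of 1.28 with an adjusted p of 0.088 by edgeR and of 0.00023 by DESeq2. Itgb8, the integrin subunit that activates latent TGF-beta, had a log2 fold change of 0.64, with an adjusted p of 0.083 by edgeR and of 0.0011 by DESeq2. Msx2, a homeobox target of BMP signalling, did not overlap between the groups, with a log2 fold change of 0.89. Its adjusted p was 0.096 by edgeR and 0.012 by DESeq2. Msx2 does not stand for the 14 tested target genes of this list. By the unadjusted edgeR threshold 2 of these rose and 1 fell, and their median log2 fold change was 0.11. Msx1, from the same list, overlapped at 0.14. On the lower side, Dcn, which encodes the TGF-beta binding proteoglycan decorin, had -0.46 with an adjusted p of 0.091 by edgeR and of 0.0035 by DESeq2. Nrp2 and Gdf10 had log2 fold changes of -0.48 and -1.33, with adjusted p of 0.10 and 0.14 by edgeR and of 0.0071 and 0.010 by DESeq2. Nedd4l had -0.29, and Gdf11, Emilin1, Scube3 and Bmp1 had 0.37, 0.29, 0.91 and 0.22. Among these only Scube3 passed with DESeq2, at an adjusted p of 0.0497.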

How the data were processed

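Hearts of 3 control-labelled and 3 mutant-labelled embryos were compared. For the deposited raw counts per gene, the authors aligned paired-end reads to GRCm38 by STAR 2.4.2a, using GENCODE vM6, and obtained counts with summarizeOverlaps. Overlap and strand settings are not given in the sources used here, so shared reads of overlapping genes are uncertain. In a second table the authors deposited the mean normalized signal over the 6 hearts, used here only to check the join, and gene symbols, used for names. Its fold changes and p-values were not used.

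Tests were run with edgeR 4.0.16 in R 4.3.3 (quasi-likelihood test, two-sided; filterByExpr, minimum count 10 and minimum total 15; TMM) and limma 3.58.1, with condition as the only term and Benjamini-Hochberg adjustment over 17125 genes at a threshold of 0.05. CPM are TMM-scaled. The counts per heart and a common biological coefficient of variation of 0.153 leave the spread between hearts, not counting error, as the limit for most members. Alternatives were DESeq2 1.42.0, RLE size factors, 2 other filters, thinning, a replicate block and leaving out each heart. Steps were tested on simulated data. Exon lengths and coordinates came from GENCODE vM21 on GRCm38, and start-site windows from RefSeq. Values in every heart were given for members with an unadjusted p under 0.05, a DESeq2 call, no overlap, one of the 5 largest changes or the highest level of a role group. At most 12 other pathway genes with an unadjusted p under 0.05 and no overlap were named, by smallest p. The result of 1 of these is not reported here. Marker lists of 11 cell types were summed per heart. Of these, smooth muscle (1342 to 1683 CPM), cushion mesenchyme (1335 to 1631 CPM), neural crest (21.7 to 28.5 CPM), macrophage (73.0 to 97.8 CPM) and liver markers (2.32 to 5.00 CPM) had summed levels that overlapped between the groups. The members and lists were chosen with earlier results of these data known.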

Additional observations from a re-analysis of the deposited data

How the results depend on the processing

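Over all tested genes, edgeR called 0 genes in either direction, whereas with DESeq2 443 genes were higher and 570 were lower. Keeping all genes with at least 1 count gave 262 and 341. Leaving out single hearts gave 0 to 320 higher and 0 to 431 lower, the highest counts being those without control 1. Members higher at an unadjusted p under 0.05 ranged from 10 to 17 and members lower from 0 to 3 when single hearts were left out. No share over all tested genes was counted beside them in these fits. The members' median log2 fold change ranged from 0.049 to 0.12, the lowest without control 2. Same-numbered hearts did not deviate together (correlations of 0.0093, -0.12 and -0.094), and differently numbered hearts had correlations from -0.033 to 0.13. With so few hearts these values cannot show whether any were paired by litter. The paper states that controls were littermates, without saying which sequenced hearts shared a litter. A replicate block gave 1 gene higher and 13 lower over all genes, and changed no call of a named gene. Of 35 named genes, 16 passed the threshold with DESeq2 and 10 with all genes of at least 1 count. RLE factors, a filter of 1 CPM and thinning to the smallest total changed none of the 35 calls. Genes near 0 changed sign: Smad5 was 0.0052 with all genes of at least 1 count, and with single hearts left out Smad5 ranged from -0.083 to 0.051, Id3 from -0.061 to 0.12, Ltbp4 from -0.31 to 0.039 and Bmpr1a from -0.11 to 0.0070. Under RLE scaling Smad4 also had groups that did not overlap. The cause of these changes was not tested. Scarce members such as Bmpr1b, Nog and Fst rested on few counts in the control-labelled hearts (10 to 63).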

Other observations

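In a few members single hearts stood apart within a group. Grem1, encoding the BMP antagonist gremlin, had counts of 4, 2 and 9 in control-labelled hearts and of 60, 2 and 1 in mutant-labelled hearts, so 1 heart held most of its counts and it was not tested. Inhbb, encoding an activin subunit, was at 9.90, 2.69 and 6.79 CPM in control-labelled hearts and between 4.49 and 5.03 CPM in mutant-labelled hearts. Bmp5 was at 3.21 CPM in control 3, against 10.0 to 13.6 CPM in the other hearts. Id2 was at 83.4, 42.5 and 46.4 CPM in control-labelled and at 62.0, 81.4 and 60.1 CPM in mutant-labelled hearts. Acvrl1 was at 12.2, 20.8 and 16.4 CPM in control-labelled hearts, and between 13.7 and 14.7 CPM in mutant-labelled hearts.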
